A study of Mus musculus with 36 samples.

Results

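Brca1 and Nbr1 lie head to head on mouse chromosome 11, and both were followed here by gene symbol through 36 RNA-seq libraries of the dorsal vagal complex, as 2 of the 24344 genes in the deposited table. The pair was selected on its measured RNA levels, which had been seen to vary jointly over the libraries of the strain CAST/EiJ against those of the other strains. That variation is therefore described without a test, and tests were kept to contrasts of the other 2 strains and to other genes. BRCA1 is a tumour suppressor that works with its partner BARD1 as a ubiquitin ligase and directs the repair of DNA double-strand breaks by homologous recombination. Its RNA is most abundant in dividing cells. NBR1 is an autophagy receptor: it binds ubiquitin on cargo and LC3-family proteins on the growing autophagosome, and so brings protein aggregates and organelles to the lysosome, in neurons as in other cells.

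The dorsal vagal complex is a brainstem region that receives visceral signals and takes part in the control of feeding. All mice were labelled wild type (WT), and they came from 3 inbred strains: the standard laboratory strain C57BL/6J, the wild-derived CAST/EiJ and the obese, diabetes-prone NZO/HlLtJ. Females and males were fed either a control diet with 10% fat or a high-fat, high-sugar diet (HFHS) with 44% fat, each with fiber, from 6 to 15 weeks of age. Strain, diet and sex gave 12 groups with 3 libraries each, whose numbers here are names only. The labels do not state that libraries came from separate animals, so p-values measure the spread between these samples, which may be in part technical. Library totals were 22.0 to 49.6 M expected counts (M, 1e6), and no pair of libraries in a group agreed within counting noise.

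Dissection differed between libraries. Markers of neurons, astrocytes, oligodendrocytes and hindbrain visceral neurons were present in every library. The summed level of 22 Hox genes, which mark the hindbrain behind the cerebellum, ran from 1.14 to 361 CPM (counts per 1e6 counts of the library), and it was under 5 CPM in 3 libraries: CAST/EiJ male control 1 and 3, and NZO/HlLtJ male control 3. The summed level of 6 cerebellar granule cell markers ran from 29.2 to 1444 CPM, and it was highest in CAST/EiJ male control 3. In tissue RNA, fewer cells of a type and less RNA per cell cannot be told apart.

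On GRCm38, Brca1 (ENSMUSG00000017146) spans chr11:101488764-101551955 on the minus strand, and Nbr1 (ENSMUSG00000017119) spans chr11:101552149-101581951 on the plus strand. The annotated starts face each other with 193 bases between them. Tmem106a (ENSMUSG00000034947), a transmembrane protein gene, follows Nbr1 on the same strand after 290 bases, at chr11:101582242-101591788. RefSeq windows of 300 bases, 250 before and 50 after a start, were taken from GRCm38.p6, the reference of C57BL/6J. The Brca1 window shares 251 bases with 1 of the 2 windows listed for Nbr1, so the printed Brca1 window shows the start region that both genes have in common, on the minus strand. The second sequence is the window of the other Nbr1 start, which lies further into the gene on the plus strand. Capitals mark matches on either strand to CCAAT, to TGACGT (the core of a CREB/ATF site) and to CGGAAG (an ETS core).
Brca1, chr11:101551906-101552205: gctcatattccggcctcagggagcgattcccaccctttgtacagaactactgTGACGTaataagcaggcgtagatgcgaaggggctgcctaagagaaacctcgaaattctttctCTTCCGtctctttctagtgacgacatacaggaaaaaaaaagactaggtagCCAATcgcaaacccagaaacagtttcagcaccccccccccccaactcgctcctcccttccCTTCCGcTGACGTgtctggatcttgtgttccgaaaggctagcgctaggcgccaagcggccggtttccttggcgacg
Nbr1, chr11:101552404-101552703: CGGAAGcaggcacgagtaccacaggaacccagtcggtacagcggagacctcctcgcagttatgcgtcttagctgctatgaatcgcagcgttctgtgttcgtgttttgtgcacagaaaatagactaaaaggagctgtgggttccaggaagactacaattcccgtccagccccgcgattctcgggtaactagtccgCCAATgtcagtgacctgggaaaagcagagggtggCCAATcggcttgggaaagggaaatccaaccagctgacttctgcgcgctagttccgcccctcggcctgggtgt

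The shared region held 1 CCAAT, 2 TGACGT and 2 CGGAAG matches. The further Nbr1 window held 2 CCAAT and 1 CGGAAG match. Of 32817 promoter windows of this length, 37.4% held CCAAT, 7.51% held TGACGT and 16.9% held CGGAAG. CG dinucleotides numbered 19 in the Brca1 window and 23 in the overlapping Nbr1 window, where the median window had 7. GC content was 53.7% and 54.0% in these windows and 52.7% in the median window. The matches are descriptions of letters in the reference, and the corresponding CAST/EiJ and NZO/HlLtJ sequences were not used here.

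Nbr1 was the abundant member of the pair in all 3 strains, and its level was nearly the same in C57BL/6J and NZO/HlLtJ. In C57BL/6J it ran from 185.8 through a median of 197.3 to 209.0 CPM, with a mean of 198.1 ± 5.79 (SD, n = 12). In NZO/HlLtJ it ran from 187.0 through 201.3 to 207.8 CPM, with a mean of 200.0 ± 5.86 (SD, n = 12). The highest library of these strains was thus 1.12 and 1.11 times the lowest. In CAST/EiJ it ran from 206.4 through 211.1 to 432.9 CPM, a 2.10-fold range, with a mean of 265.4 ± 88.2 (SD, n = 12).

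Brca1 was the scarce member of the pair. In C57BL/6J it ran from 2.25 through a median of 2.70 to 3.32 CPM, with a mean of 2.73 ± 0.311 (SD, n = 12). In NZO/HlLtJ it ran from 1.42 through 2.17 to 3.44 CPM, with a mean of 2.28 ± 0.557 (SD, n = 12). In CAST/EiJ it ran from 0.775 through 1.36 to 3.81 CPM, a 4.91-fold range, with a mean of 1.68 ± 0.964 (SD, n = 12). These levels rest on 29 to 166 expected counts a library, against 5469 to 18690 for Nbr1, so the Brca1 values carry the larger counting error. Levels of the 2 genes can be compared only per length, on CPM per kb of exon (8.53 kb for Brca1, 6.87 kb for Nbr1). On that scale the median ratio of Nbr1 to Brca1 was 91.4 in C57BL/6J, 108 in NZO/HlLtJ and 199 in CAST/EiJ.

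The 12 CAST/EiJ libraries held the variation for which the pair was chosen. All 3 males on HFHS were high in Nbr1, at 432.9, 314.5 and 428.3 CPM. The 3 females on HFHS had 217.6, 207.9 and 209.7 CPM. Female controls had 209.3, 207.4 and 206.4 CPM. Male controls had 209.6, 212.5 and 328.2 CPM. Nbr1 was thus between 206.4 and 217.6 CPM in all 6 females and 2 of 3 male controls, and above 314 CPM in the 3 males on HFHS and male control 3.

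Brca1 followed Nbr1 in the HFHS males but not in male control 3. The 3 males on HFHS had 3.30, 2.02 and 3.81 CPM of Brca1. The 3 females on HFHS had 1.99, 1.17 and 1.45 CPM. Female controls had 0.814, 1.26 and 1.48 CPM. Male controls had 0.775, 1.05 and 1.07 CPM, and the last of these is the library with 328.2 CPM of Nbr1. The highest female on HFHS, at 1.99 CPM, lay just below the lowest male on HFHS, at 2.02 CPM. Against the mean of the CAST/EiJ female controls, the HFHS males stood at 2.08, 1.51 and 2.06 times for Nbr1 and at 2.78, 1.70 and 3.21 times for Brca1. Male control 3 stood at 1.58 times for Nbr1 and 0.905 times for Brca1.

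**Figure D1:**
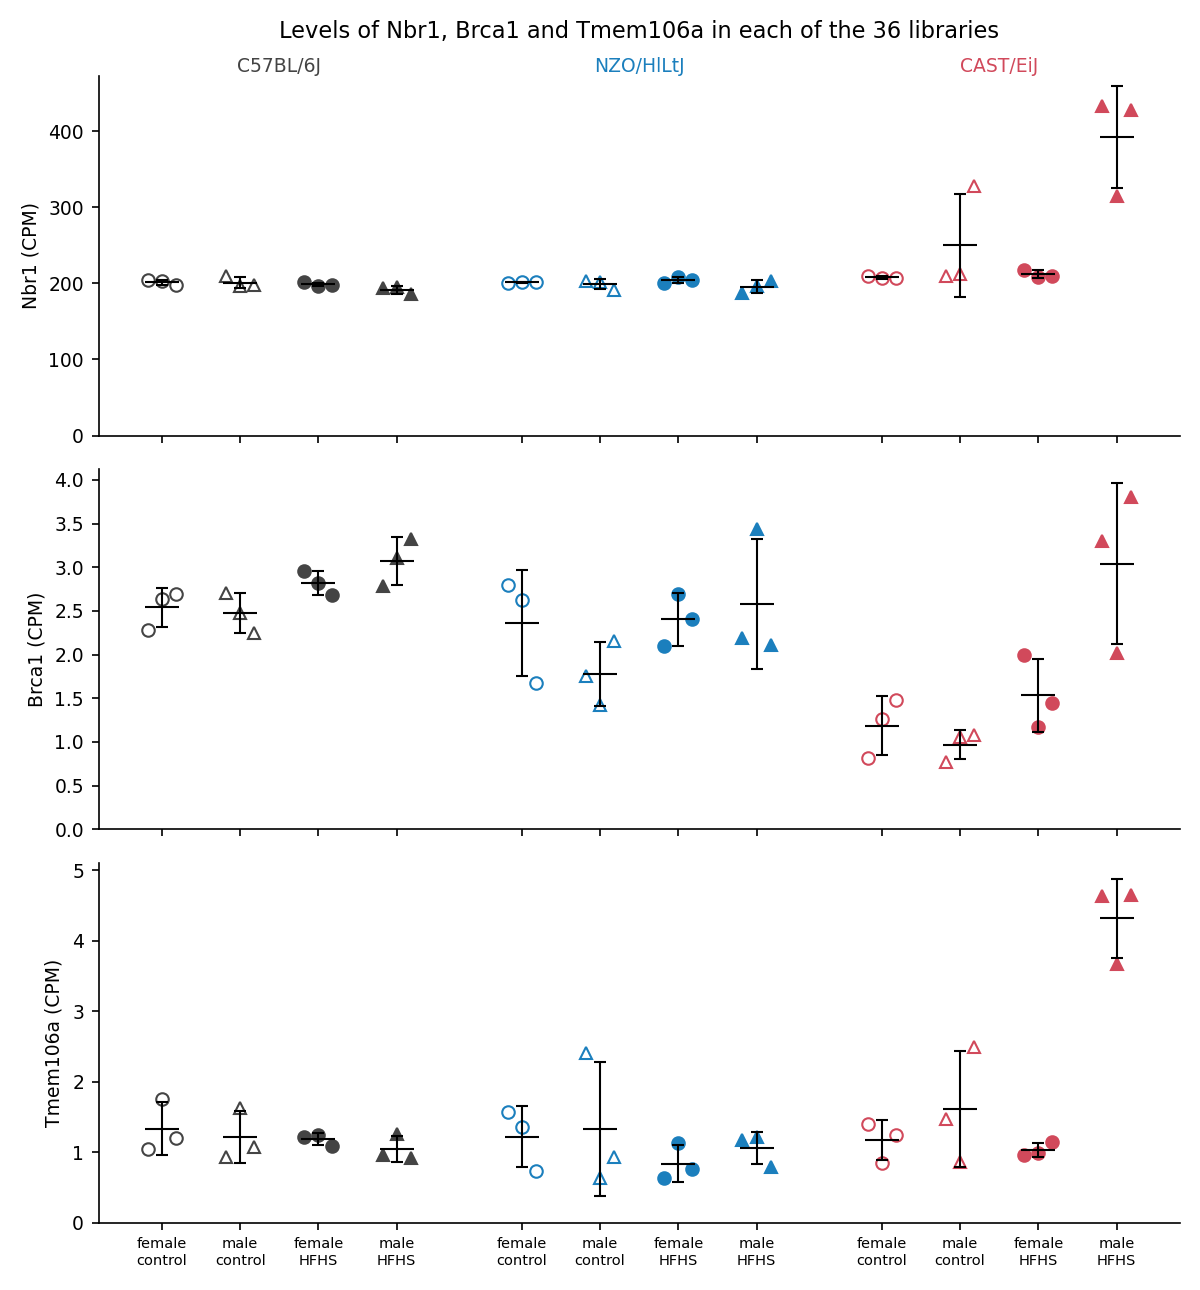
Levels of Nbr1, Brca1 and Tmem106a in CPM on linear axes from 0, for the 12 groups of strain, sex and diet; each point is 1 library (circles, females; triangles, males; open, control diet; filled, HFHS), and bars give the mean and SD of 3. The 3 CAST/EiJ males on HFHS are the highest group for Nbr1 (314.5 to 432.9 CPM) and for Tmem106a, while the C57BL/6J and NZO/HlLtJ libraries stay between 185.8 and 209.0 CPM for Nbr1.

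By labelled group, CAST/EiJ males on HFHS had 391.9 ± 67.1 CPM of Nbr1 (SD, n = 3) and females on HFHS had 211.7 ± 5.16, a ratio of 1.85. For Brca1 these groups had 3.04 ± 0.921 and 1.53 ± 0.418 CPM, a ratio of 1.98. On the control diet the ratio of males to females was 1.20 for Nbr1, carried by male control 3, and 0.815 for Brca1. As fitted log2 differences over the labelled groups of CAST/EiJ, given without a test, HFHS minus control was 1.00 for Brca1 and 0.34 for Nbr1. Marker sums moved with diet in CAST/EiJ too: the Hox sum was 233 to 333 CPM in the 6 HFHS libraries and 1.14 to 244 CPM in the 6 controls, and the sum of 5 red blood cell markers was 209.5 to 384.5 CPM and 654 to 2538 CPM. Their part in the diet difference was not tested. Male minus female was 0.34 for Brca1 and 0.58 for Nbr1. CAST/EiJ minus C57BL/6J was -0.84 for Brca1 and 0.37 for Nbr1, and CAST/EiJ minus NZO/HlLtJ was -0.57 and 0.36. The last pair of contrasts shares the CAST/EiJ libraries. Brca1 was thus lower on average in CAST/EiJ and Nbr1 higher, though how CAST/EiJ reads match the reference cannot be told apart from RNA level. The Nbr1 difference lay mainly in males, at 321.0 CPM in CAST/EiJ, 196.2 in C57BL/6J and 197.3 in NZO/HlLtJ. Females had 209.7 ± 4.05, 200.0 ± 3.06 and 202.8 ± 2.85 CPM (SD, n = 6). Of Brca1 the females had 1.36, 2.68 and 2.38 CPM and the males 2.00, 2.78 and 2.18. The highest Nbr1 library of the other strains had 209.0 CPM. The 4 high CAST/EiJ libraries, at 314.5 CPM or more, lay well above it. The remaining CAST/EiJ libraries, at 206.4 to 217.6 CPM, lay close to it on both sides.

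The range of Nbr1 was one of the values on which the pair was selected, so its place among other abundant genes is a description only. Of 2260 genes with a mean of 100 CPM or more in CAST/EiJ, 147 (6.5%) had a highest library at least 2 times the lowest, and 127 had a range at least that of Nbr1. In C57BL/6J 2162 of 2260 such genes, and in NZO/HlLtJ 2225 of 2249, ranged at least as widely as Nbr1 did there. These counts include Nbr1 itself.

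The Hox and cerebellar sums of the CAST/EiJ males on HFHS lay within the ranges of the females on HFHS, while those of male controls 1 and 3 lay outside them. The males on HFHS had Hox sums of 260 to 279 CPM, within the 233 to 333 CPM of the females on HFHS. Their sums over 10 dividing-cell markers were 42.3 to 47.8 CPM, against 44.1 to 47.2 CPM in the females on HFHS. Their sums over 5 red blood cell markers were 210 to 384.5 CPM, against 273.5 to 286 CPM in these females. Their cerebellar sums were 108 to 150 CPM, within the 29.2 to 471 CPM of the females on HFHS. In male control 3 the Hox sum was 1.91 CPM, the cerebellar sum 1444 CPM and the choroid plexus sum, over 6 markers, 10.9 CPM. Male control 1, whose Hox sum was 1.14 CPM and cerebellar sum 1189 CPM, had 209.6 CPM of Nbr1. The part of dissection in the level of male control 3 was not tested.

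Within strains, joint variation is given as a description over 12 libraries that share normalization and diet groups. In C57BL/6J, Pearson's r between log2 CPM of Brca1 and Nbr1 was -0.50 (Spearman's rho -0.45), and r was -0.34 without the 2 libraries farthest from the Nbr1 median. In NZO/HlLtJ it was -0.07 (rho -0.10), and -0.22 without the 2 farthest. CAST/EiJ libraries fell into separate clusters of Nbr1. Within its 6 females, where Nbr1 spanned only 206.4 to 217.6 CPM, r was 0.57 and rho 0.20. Over all 12 CAST/EiJ libraries the value used to rank like genes was 0.76 (rho 0.49). It fell to 0.27 (rho 0.13) without HFHS males 1 and 3, so its size rests on those 2 libraries. After the mean of each group of 3 was subtracted, r was 0.51 (rho 0.64) over the 12 CAST/EiJ libraries and -0.08 (rho -0.07) over the 24 libraries of the other strains. Among 1090 head-to-head pairs of tested genes with starts at most 1000 bases apart, the median r was 0.13 in C57BL/6J, 0.11 in CAST/EiJ and 0.11 in NZO/HlLtJ. In CAST/EiJ 55 of these pairs had an r at least that of Brca1 and Nbr1, in NZO/HlLtJ 746 and in C57BL/6J 1032. Each count includes the pair itself.

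**Figure D2:**
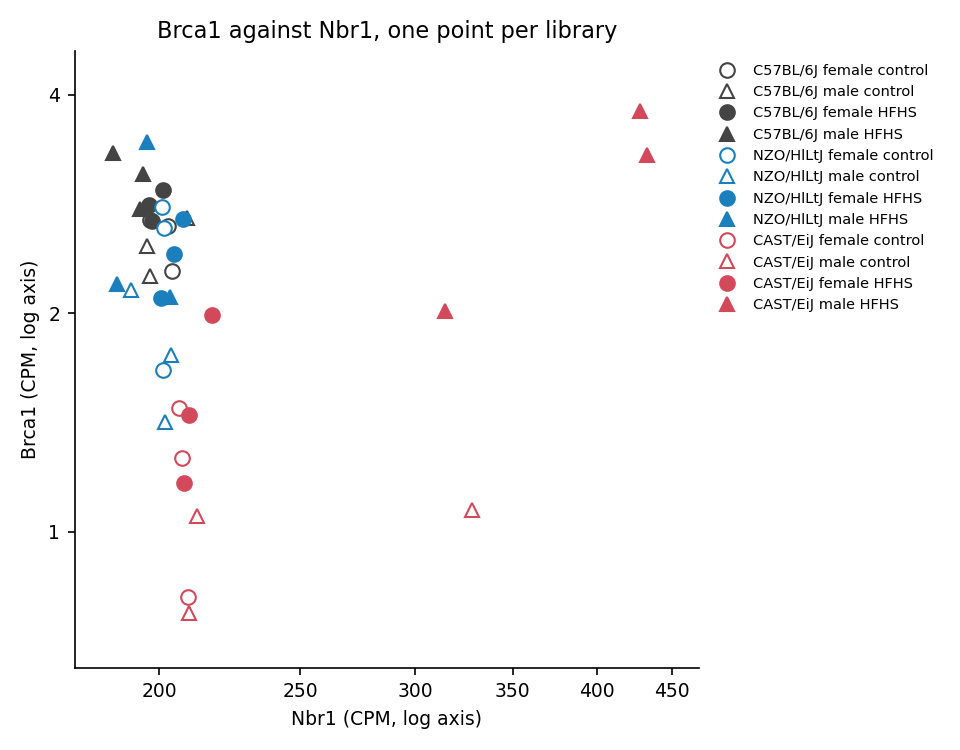
Brca1 against Nbr1 in CPM on log axes, with 1 point per library coloured by strain. C57BL/6J and NZO/HlLtJ form a vertical band at 185.8 to 209.0 CPM of Nbr1; 4 male CAST/EiJ libraries lie to the right of it, 3 of them on HFHS at 2.02 to 3.81 CPM of Brca1 and male control 3 at 1.07 CPM.

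In C57BL/6J and NZO/HlLtJ, neither gene passed an adjusted p of 0.05 for diet or sex. The choice of the pair set CAST/EiJ against these strains, so their small spread was part of it, and the missing calls are no independent evidence of steady levels. The test was edgeR's quasi-likelihood test over 20108 genes with Benjamini-Hochberg adjustment, on log2 differences. It took its spread from all 36 libraries, those of CAST/EiJ among them. For Nbr1 the estimated coefficient of variation between libraries was 0.097 over all libraries and 0.062 over C57BL/6J and NZO/HlLtJ alone. For Brca1 it was 0.191 and 0.171. The SE and intervals below are thus not those of these 2 strains alone. For diet in C57BL/6J, which called 0 of all genes (0%; 525 at an unadjusted p under 0.05; 0 by DESeq2 and 0 by limma), Brca1 had 2.54 ± 0.221 (SD, n = 3) and 2.48 ± 0.230 CPM in female and male controls, and 2.82 ± 0.139 and 3.07 ± 0.271 CPM on HFHS. The 6 HFHS libraries ran from 2.68 to 3.32 CPM and the 6 controls from 2.25 to 2.71 CPM, so the groups overlapped slightly. The log2 difference, HFHS minus control, was 0.23 (SE 0.17, adjusted p = 1 by edgeR), with a 95% interval of -0.13 to 0.59. For Nbr1 it was -0.043 (SE 0.076, adjusted p = 1 by edgeR), with an interval of -0.20 to 0.11.

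For diet in NZO/HlLtJ, where 0.0497% of all genes were called, the difference of Brca1 was 0.28 (SE 0.18, edgeR adjusted p = 0.622), with an interval of -0.081 to 0.63. Its controls ran from 1.42 to 2.80 CPM and its HFHS libraries from 2.10 to 3.44 CPM. The difference of Nbr1 was -0.00094 (SE 0.076, edgeR adjusted p = 1), with an interval of -0.16 to 0.15. The diet effects of the 2 strains differed by 0.047 for Brca1 (edgeR adjusted p = 0.998, interval -0.46 to 0.55) and by 0.042 for Nbr1 (edgeR adjusted p = 0.984, interval -0.18 to 0.26). That interaction called 0% of all genes in edgeR and limma (1307 genes at an unadjusted p under 0.05) and 11 genes in DESeq2. At this depth a Brca1 rise of up to 0.63 with diet lay within the intervals. The Nbr1 intervals reached no farther than -0.20 and 0.15. Marker sums also differed by diet in NZO/HlLtJ males. Their Hox sums were 110 to 361 CPM on HFHS and 2.75 to 65.4 CPM on the control diet. Their red blood cell sums were 540 to 761 CPM and 1216 to 2693 CPM. In C57BL/6J males the Hox sums, 157 to 288 CPM and 29.6 to 240 CPM, overlapped. Both sums overlapped in the females of either strain. Neither gene passed for diet with a Hox covariate. The part of the red blood cell sums was not tested.

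Sex differences were not called either, and the Brca1 intervals were again the wider ones. Male minus female, Brca1 differed by 0.045 in C57BL/6J (edgeR adjusted p = 1) and by -0.15 in NZO/HlLtJ (edgeR adjusted p = 0.867). Nbr1 differed by -0.028 (edgeR adjusted p = 1) and -0.040 (edgeR adjusted p = 0.926). In C57BL/6J and NZO/HlLtJ the 95% intervals were -0.31 to 0.40 and -0.51 to 0.21 for Brca1. For Nbr1 they were -0.18 to 0.13 and -0.19 to 0.11. Sex called 0.0746% of all genes in each of these strains.

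Between NZO/HlLtJ and C57BL/6J the levels of Brca1 differed by -0.27 (SE 0.12), with an interval of -0.52 to -0.015. The unadjusted p was 0.0384 and the adjusted p 0.121 in edgeR, so the difference did not pass, in a contrast that called 23.8% of all genes. Nbr1 differed by 0.014 (SE 0.053, edgeR adjusted p = 0.893), with an interval of -0.095 to 0.12. The log2 ratio of Brca1 to Nbr1 within a library, which does not depend on library size, was -6.49 ± 0.358 (SD, n = 12) in NZO/HlLtJ and -6.18 ± 0.189 (SD, n = 12) in C57BL/6J. The difference of -0.30 had an unadjusted p = 0.0149 in a two-sided permutation test with 100000 resamples. When any 1 library was left out, that test gave p of 0.00162 to 0.0323. In edgeR 34.1% of all genes had an unadjusted p under 0.05 in this strain contrast. With Nbr1 nearly level between these strains, the ratio mostly repeats the Brca1 difference, which did not pass. In CAST/EiJ the same ratio was -7.41 ± 0.485 (SD, n = 12), given without a test.

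**Figure D3:**
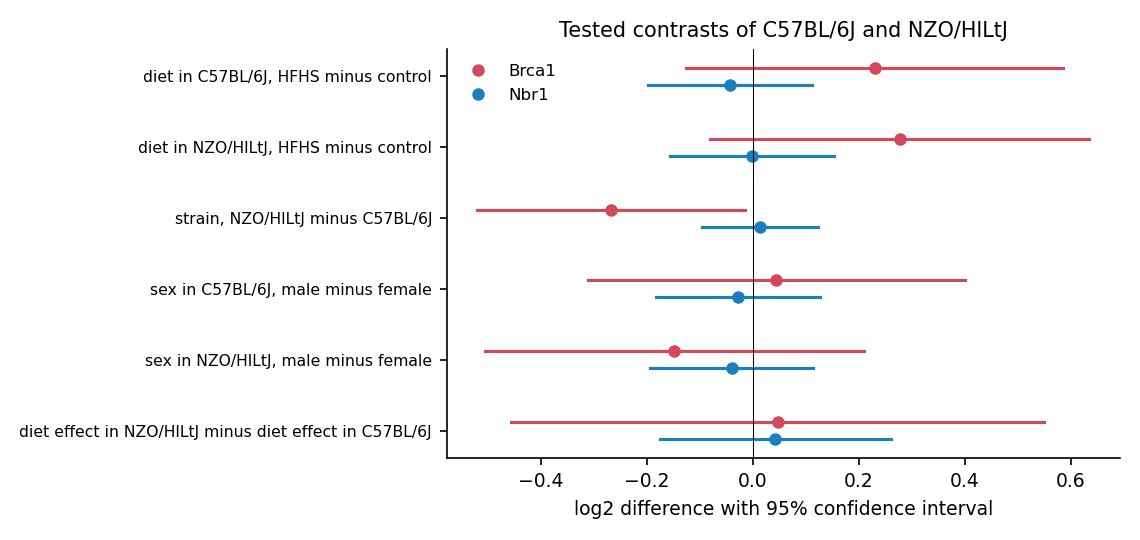
Log2 differences (points) and 95% confidence intervals (lines) of Brca1 and Nbr1 in the contrasts that involve only C57BL/6J and NZO/HlLtJ. The spread behind the intervals was estimated over the libraries of all strains, CAST/EiJ among them. The Nbr1 intervals are the narrower ones and all include 0; of the Brca1 intervals only NZO/HlLtJ minus C57BL/6J, at -0.52 to -0.015, lies on 1 side of 0, and its adjusted p was 0.121.

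Genes within 0.5 Mb of the pair numbered 44 in the deposited table, of which 41 passed the filter on low counts. Directly above Nbr1, Tmem106a varied with it. In CAST/EiJ males on HFHS Tmem106a had 4.63, 3.67 and 4.65 CPM. Females on HFHS had 0.961, 0.989 and 1.15 CPM, and female controls 1.40, 0.852 and 1.25 CPM. Male controls had 1.47, 0.867 and 2.50 CPM, the highest of these in male control 3. The 4 libraries with high Nbr1 were thus also the 4 highest for Tmem106a, at 2.13 to 3.98 times the female control mean. Its expected counts in CAST/EiJ were 28 to 203. Nbr1 ends 290 bases before Tmem106a on the same strand, and how reads between these genes were counted is not known.

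Tmem106a was the 1 neighbour of 41 called for sex in CAST/EiJ, a contrast that called 0.109% of all genes. Tmem106a followed Nbr1 (r 0.95) over the CAST/EiJ libraries on which the pair was selected. Its p-values in CAST/EiJ contrasts, here and below, are thus not independent of that choice. Its log2 difference, male minus female, was 1.25 (SE 0.27, edgeR adjusted p = 0.0491; DESeq2 adjusted p = 0.00252; limma adjusted p = 0.00626 on the deposited log2 values). The edgeR call was lost in 28 of 36 leave-outs of 1 library, among them each of the 3 HFHS males and male control 3, and also without the 3 libraries almost lacking Hox reads. For diet in CAST/EiJ its difference was 0.63 (SE 0.26, edgeR adjusted p = 0.2). In the other strains it ran from 0.915 to 1.75 CPM in C57BL/6J and from 0.629 to 2.41 CPM in NZO/HlLtJ. The highest NZO/HlLtJ library, male control 1, had 203.7 CPM of Nbr1 and a summed pituitary marker level of 17410 CPM, where every other library had at most 22.7 CPM.

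Among the genes of the window at a mean of 1 CPM or more, these 3 adjacent genes stood highest in CAST/EiJ males on HFHS relative to females on HFHS. Brca1 and Nbr1 were chosen for their variation in CAST/EiJ, so their place above the neighbours is a description only. The mean of these males over that of females on HFHS was 1.98 for Brca1, 1.85 for Nbr1 and 4.18 for Tmem106a. For the 35 other neighbours at 1 CPM or more this ratio ran from 0.707 (Arl4d) through a median of 1.00 to 1.24 (Ifi35). The nearest genes beyond Brca1 are Rnd2, a small GTPase gene 16911 bases away, with a ratio of 1.04, and Vat1, a vesicle membrane protein gene, with 1.05. The next gene beyond Tmem106a is Rdm1, an RNA-binding gene of DNA damage responses 45244 bases from the pair, with 0.905. In CAST/EiJ the r of these neighbours with Nbr1 was 0.19 for Rnd2, -0.02 for Vat1 and -0.20 for Rdm1, and the highest r of a neighbour other than Tmem106a was 0.58. Other neighbours also varied widely within CAST/EiJ but not with Nbr1: Mpp3, a scaffold gene, had a 4.37-fold range with an r of 0.03.

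**Figure D4:**
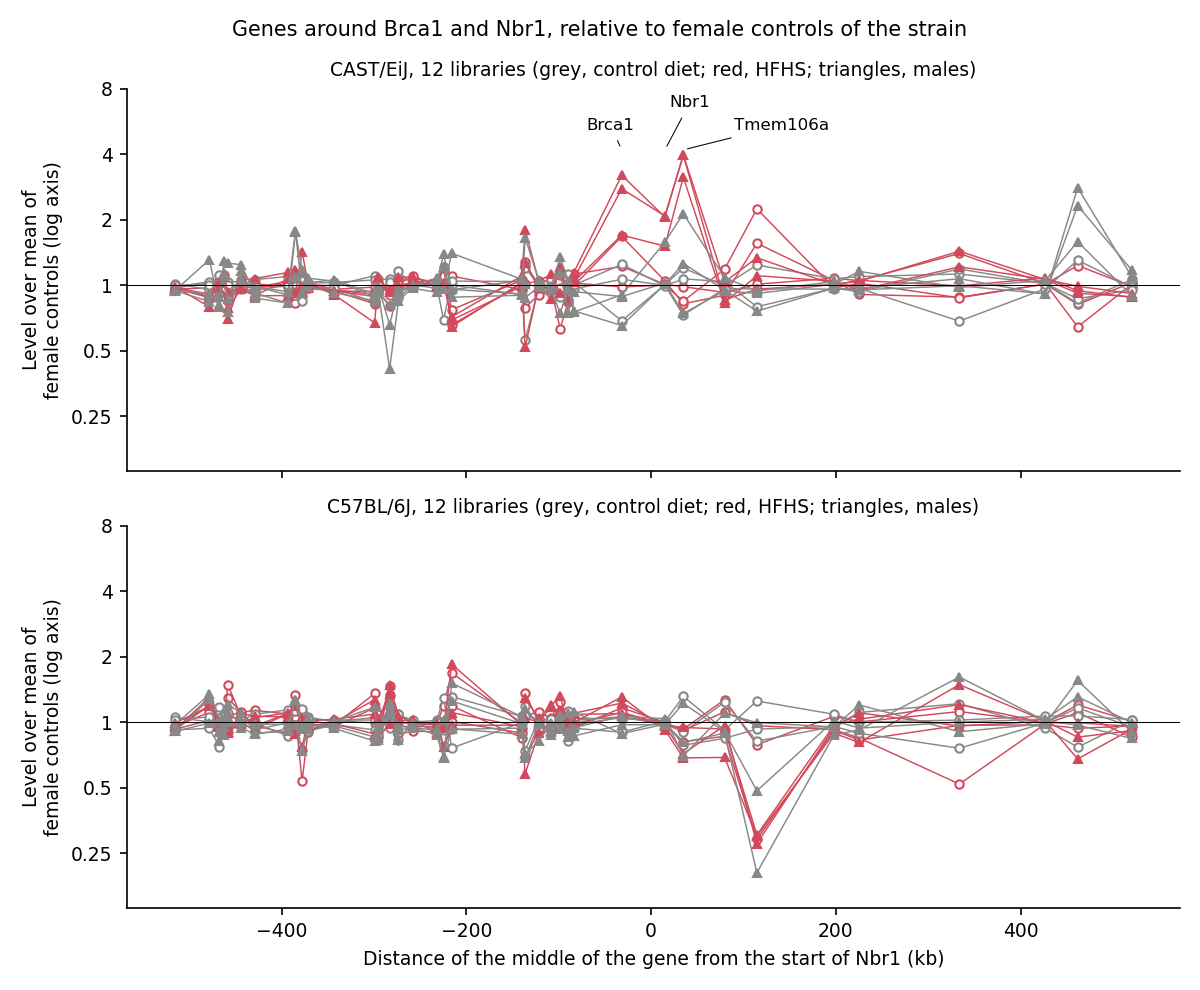
Levels of the pair and of neighbours with a mean of at least 1 CPM in each library, as a ratio to the mean of the strain's female controls on a log axis, against the distance in kb of the middle of the gene from the start of Nbr1; lines join the genes of 1 library. In CAST/EiJ (top) males on HFHS rise at Brca1, Nbr1 and Tmem106a, up to 3.21, 2.08 and 3.98 times, and return to near 1 at the next genes. In C57BL/6J (bottom) no library shows this. Brca1 and Nbr1 were chosen for their variation in CAST/EiJ.

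Strain contrasts called many of the neighbours, at shares near those of all genes for NZO/HlLtJ and somewhat higher for CAST/EiJ. NZO/HlLtJ minus C57BL/6J called 9 of 41 (22.0%, against 23.8% of all genes), 4 higher and 5 lower (11.7% and 12.2% of all genes). Arl4d, a small GTPase gene, fell by 1.15, Cd300lg, an endothelial receptor gene, fell by 1.04, Rdm1 fell by 0.47, and Dhx8, an RNA helicase gene, fell by 0.11 on the log2 scale. Rnd2 rose by 0.39, Etv4, an ETS transcription factor gene, by 0.30, Dusp3, a phosphatase gene, by 0.24, and Fam134c, of a family of endoplasmic reticulum autophagy receptors, by 0.10. The edgeR adjusted p of these 8 genes ran from 2.6e-07 for Rnd2 to 0.0426 for Fam134c.

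CAST/EiJ minus C57BL/6J called 26 of 41 neighbours (63.4%, against 52.2% of all genes), 21 higher and 5 lower, where 24.5% of all genes were higher and 27.7% lower. CAST/EiJ minus NZO/HlLtJ called 23 (56.1%, against 49.8%), 20 higher and 3 lower, where 22.6% of all genes were higher and 27.2% lower. Both contrasts share the CAST/EiJ libraries, and how reads of a strain match a reference of another strain cannot be told apart from its RNA level. Rpl27, a ribosomal protein gene, rose by 2.68 against C57BL/6J and 2.60 against NZO/HlLtJ, but near-identical copies of such genes elsewhere in the genome make its count uncertain. Hsd17b1, a steroid dehydrogenase gene at a mean of only 0.349 CPM, rose by 2.39 and 2.21. Aoc2, an amine oxidase gene, rose by 1.16 and 1.20. Ifi35, an interferon-induced gene, fell by 0.87 and 1.15. Mpp2, a synaptic scaffold gene, fell by 0.28 and 0.36, and no other neighbour was called lower in both. Beside the pair, Rnd2 rose by 0.58 and 0.19, Vat1 by 0.32 and 0.24, and Tmem106a by 0.51 (SE 0.19, edgeR adjusted p = 0.0255) and 0.64 (SE 0.19, edgeR adjusted p = 0.00604). In females alone Tmem106a had 1.10 ± 0.205 CPM (SD, n = 6) in CAST/EiJ, 1.26 ± 0.255 in C57BL/6J and 1.03 ± 0.382 in NZO/HlLtJ, and the CAST/EiJ males had 2.96 ± 1.61 CPM.

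Diet called 0 of the 41 neighbours in edgeR in each strain, as did sex in C57BL/6J and in NZO/HlLtJ. At an unadjusted p under 0.05 there were 2 in C57BL/6J, 7 in NZO/HlLtJ and 10 in CAST/EiJ for diet, in contrasts where 2.61%, 10.0% and 18.5% of all genes were under that value and where 0%, 0.0497% and 0.269% were called. For sex there were 1 and 3, against 4.68% and 8.6% of all genes. DESeq2 called Rundc1 for diet in NZO/HlLtJ, and Mpp3 and Rnd2 for diet in CAST/EiJ, where it called 0.596% and 4.11% of all genes. It called 0 in the others, and limma called 0 in all of these.

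Genes that work with BRCA1 in homologous recombination differed between strains in both directions. Of the listed genes, 31 were tested. NZO/HlLtJ minus C57BL/6J called 10 (32.3%, against 23.8% of all genes), 4 higher and 6 lower, with a median log2 difference of 0.03 against 0.01 over all genes. Palb2, which bridges BRCA1 and BRCA2, rose by 0.50 on the log2 scale. Chek2, a checkpoint kinase gene, fell by 0.46. Bard1, the obligate partner of BRCA1, differed by -0.12 (SE 0.14, edgeR adjusted p = 0.581).

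CAST/EiJ minus C57BL/6J called 19 of the 31 (61.3%, against 52.2%), 12 higher and 7 lower, with a median of 0.01. CAST/EiJ minus NZO/HlLtJ called 17 (54.8%, against 49.8%), 10 higher and 7 lower, with a median of 0.02. Xrcc3, a homologous recombination gene, fell by 1.05 and 0.71, and Fancd2, of the crosslink repair pathway, fell by 0.95 in both contrasts. Brca2 rose by 0.80 and 0.60, and Brip1, a helicase gene, rose by 0.99 and 0.59. Palb2 differed by -0.07 from C57BL/6J (edgeR adjusted p = 0.687) and fell by 0.58 against NZO/HlLtJ. Bard1 differed by -0.19 and -0.07 (edgeR adjusted p = 0.248 and 0.696), so no strain contrast called the gene of the obligate partner.

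The autophagy list holds cargo receptors, LC3-family genes and the core machinery of autophagosome formation. Of 29 tested, NZO/HlLtJ minus C57BL/6J called 13 (44.8%, against 23.8% of all genes), 5 higher and 8 lower, with a median of -0.04 against 0.01 over all genes. Bnip3 and Bnip3l, receptors for mitochondria, fell by 0.26 and 0.19, as did Fundc1, another such receptor, by 0.21, and Map1lc3a, of the LC3 family, by 0.23. CAST/EiJ minus C57BL/6J and CAST/EiJ minus NZO/HlLtJ each called 15 (51.7%, against 52.2% and 49.8%), 7 higher and 8 lower. Atg12, whose protein is conjugated to ATG5, rose by 0.40 and 0.35. Against C57BL/6J, Bnip3l fell by 0.33, Atg7, which activates LC3 for conjugation, by 0.24, and Gabarap, of the LC3 family, by 0.23. Against NZO/HlLtJ, Map1lc3a rose by 0.44, Pik3c3, the lipid kinase of autophagosome formation, by 0.24, and Gabarapl1 by 0.21.

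Sqstm1, which encodes the p62 receptor that binds NBR1, differed by -0.08, -0.03 and 0.04 in the contrasts NZO/HlLtJ minus C57BL/6J, CAST/EiJ minus C57BL/6J and CAST/EiJ minus NZO/HlLtJ, with edgeR adjusted p of 0.173, 0.539 and 0.354. Optn, another ubiquitin-binding receptor gene, differed by 0.05, 0.06 and 0.02, with edgeR adjusted p of 0.551, 0.282 and 0.79. Map1lc3b, an LC3 gene, fell by 0.23 and 0.18 in CAST/EiJ against C57BL/6J and NZO/HlLtJ, and differed by -0.04 between the latter (edgeR adjusted p = 0.624). Neither list had a gene called by edgeR for diet or sex in any strain. For diet at an unadjusted p under 0.05 there were 2, 3 and 7 recombination genes in C57BL/6J, NZO/HlLtJ and CAST/EiJ, and 0, 2 and 7 autophagy genes, against 2.61%, 10.0% and 18.5% of all genes. For sex there were 1, 1 and 2, and 0, 0 and 6, against 4.68%, 8.6% and 11.8% of all genes. DESeq2 called 1 recombination gene and 2 autophagy genes for diet in CAST/EiJ, where it called 4.11% of all genes, limma called 1 and 0, where it called 1.38%, and both called 0 in the other diet and sex contrasts.

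The protein-coding genes most like each member were ranked by Pearson's r of log2 CPM, as a description. The ranking was among 15984 genes in CAST/EiJ and among 16010 in the other strains. Over the 12 CAST/EiJ libraries, those most like Nbr1 were Tmem106a (0.95), Krtcap3 (0.86), Anapc10 (0.85), Hdac2 (0.84) and Dcaf13 (0.83), with Brca1 in place 12. By Spearman's rho 0 of these 5 were again among the first 5, and the rho of Tmem106a was 0.65. Its r was 0.88 (rho 0.41) without HFHS males 1 and 3, and 0.73 (rho 0.52) after the group means were subtracted. Those most like Brca1 were Nipal2 (0.92), Arhgef3 (0.86), Rab33b (0.84), Golga7 (0.82) and Rab3gap1 (0.82), with Nbr1 in place 29, and 3 of these 5 were also among the first 5 by rho. Over the 24 libraries of the other strains, Brca1 was most like Hacl1 (0.85), Naaa (0.80), Icosl (0.76), Hoga1 (0.72) and Gkn3 (0.72), and Nbr1 was in place 13022. Nbr1 was there most like Cdc42bpg (0.75), Socs2 (0.73), Usp36 (0.73), Cep85 (0.71) and Baz2b (0.71). No strain or group means were subtracted for these rankings, so differences in level between strains or groups can add to the r.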

How the data were processed

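Polyadenylated RNA of 36 dorsal vagal complex samples was sequenced with 100 bp paired reads, per the labels' protocols, from 100 ng of RNA with the KAPA mRNA HyperPrep kit and ERCC spike-ins. The authors deposited expected counts per gene, of which 18.7 to 22.7% in a library were not whole numbers, and log2 values after a variance-stabilizing transformation, as the values and the deposited table's own name show. GRCm38 and DESeq2 are named in the submitters' processing notes; the aligner, the counting tool and its use of strand were not given in the sources used.

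Expected counts were rounded, genes under a minimum count of 10 by filterByExpr were left out, and 20108 of 24344 genes were tested in edgeR 4.0.16 (R 4.3.3) with TMM factors (0.959 to 1.04), 12 group means and the robust quasi-likelihood test. CPM use the same factors. All calls are at an adjusted p of 0.05. The 0.5 Mb window runs from either end of the pair, and exon lengths come from GENCODE vM21. Alternatives were DESeq2 1.42.0, limma 3.58.1 on the deposited log2 values, upper-quartile factors, no filter, only the strains compared, an additive sex term, a Hox covariate, other windows and prior counts, and leave-outs. The model was also run on simulated counts with a coefficient of variation of 0.05. The common value in these data was 0.163, so that run cannot show how the test behaves at their spread. Scripts used Python 3.11.15 and scipy 1.17.1.

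Named genes were Brca1, Nbr1 and Tmem106a, the 2 nearest tested genes on each side, the 8 neighbours with the largest called NZO/HlLtJ difference, the 3 largest rises and falls called in both CAST/EiJ contrasts, up to 4 called genes a list and contrast, fixed partners, and the 5 most alike genes. Mpp3, Arl4d, Ifi35, Rundc1 and, for 1 library, the pituitary sum were named beside these after their values were seen. The members and lists were chosen with earlier results of these data known. Where a current symbol (Abraxas1, Babam2, Mre11) was missing, the older one stood for it. Some genes that this rule names are not reported here.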

Additional observations from a re-analysis of the deposited data

Results flagged for a closer look

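In groups of 6 libraries of 1 strain and diet, 2 libraries stood apart from the others in Nbr1 by Dixon's criterion, where the gap to the nearest library over the whole range has to exceed 0.625. Brca1, Nbr1 and Tmem106a were each scanned in every strain and diet. Chance flags about 1 in 20 such groups, so a single flag in this scan can arise by chance. CAST/EiJ male control 3 had 328.2 CPM, which is a description only, since the pair was selected on these values, with a gap of 0.95 of the range over the control libraries of that strain. Its Hox sum was 1.91 CPM and its cerebellar sum 1444 CPM. NZO/HlLtJ male control 3 had 191.3 CPM, the lowest of its group, with a gap of 0.78 of the range, and its Hox sum was 2.75 CPM. In the HFHS group of that strain, male HFHS 1 was lower still, at 187.0 CPM, and was not flagged. Both flagged libraries are among the 3 libraries almost lacking Hox reads. CAST/EiJ male control 1, the remaining library of that kind, had 209.6 CPM. The part of dissection in these values was not tested.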

How the results depend on the processing

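Of Brca1 and Nbr1, no contrast of C57BL/6J and NZO/HlLtJ passed the threshold under any alternative run. The Nbr1 diet difference in NZO/HlLtJ, near 0, turned positive with upper-quartile factors (0.013), an additive sex term (0.0009) and a Hox covariate (0.030), and ran from -0.019 to 0.019 over leave-outs of 1 library. The Brca1 difference of diet effects ran from -0.073 to 0.13 over leave-outs. On the deposited log2 values, whose transformation shrinks low genes, Brca1 differed by only 0.29 for diet in CAST/EiJ, -0.25 for CAST/EiJ minus C57BL/6J and -0.15 for CAST/EiJ minus NZO/HlLtJ. With a window of 0.25 Mb, which holds fewer genes, 15 and 15 of 22 tested neighbours were called in the CAST/EiJ strain contrasts. These are 68.2% each, against 52.2% of all genes in the contrast with C57BL/6J and 49.8% in that with NZO/HlLtJ. With DESeq2 1 neighbour was called for diet in NZO/HlLtJ and 2 for diet in CAST/EiJ, where it called 0.596% and 4.11% of all genes. Over leave-outs, diet in CAST/EiJ called 0 to 4 neighbours and sex in CAST/EiJ 0 to 3, the highest of each without CAST/EiJ male control 2. With all libraries these contrasts called 0.269% and 0.109% of all genes. Sex in CAST/EiJ called 0 with upper-quartile factors, with only the strains compared, with a Hox covariate and when the 3 libraries with Hox sums under 5 CPM were left out. The causes were not tested. Of the 5 genes most like Nbr1 in CAST/EiJ, all 5 were shared on the deposited log2 values, and 2 of the 5 most like Brca1. Depth limits Brca1 and Tmem106a, with as few as 29 and 28 counts in a CAST/EiJ library. No paired analysis was possible because the labels number no replicates.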
